A study of Mus musculus with 6 samples.

Results

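Heterotrimeric G proteins and the RGS proteins that switch them off were examined in the hippocampus of 6 adult male C57BL/6J mice aged 2 to 3 months, 3 on a control diet and 3 on a ketogenic diet, which is rich in fat and poor in carbohydrate, for 3 weeks. All the mice shared strain, sex and feeding time, and no genetic change was named for either group. The genes were chosen by name and a count minimum, with earlier results of these data known. They are the protein-coding rows of the count table named as RGS genes or as alpha, beta or gamma subunits, without Rgs5, Rgs14 and Gnas, which the selection left out, and with at least 60 counts over the 6 libraries. Of 53 rows with such names 45 had enough counts, among 53715 genes in all. Just inside the count minimum were Rgs9bp with 64 counts and Gna14 with 69, and just outside it were Gnat1 with 23 and Gnat2 with 18. Of the other rows outside it, Gnb3 had 13 counts, Rgs1 and Rgs18 had 7 each, and Gnat3, Gngt1 and Rgs21 had 0.

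A G protein is a trimer of an alpha, a beta and a gamma subunit at the inner face of the cell membrane. An activated receptor makes the alpha subunit exchange GDP for GTP, whereupon alpha and the beta-gamma pair part and act on cyclases, phospholipases and ion channels. RGS proteins speed the hydrolysis of that GTP and so end the signal. In hippocampal neurons these proteins carry the slow inhibitory effects of GABA-B, adenosine and opioid receptors and the excitatory effects of muscarinic and metabotropic glutamate receptors.

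Libraries held 16832240 to 18357792 counts. Levels are given as CPM, counts scaled to the size of the library, and between different genes as FPKM, which also divides by gene length. Differences are log2 fold changes of ketogenic over control with their standard error. A gene is called changed when edgeR's quasi-likelihood test gave a Benjamini-Hochberg adjusted p under 0.05 over all 16478 genes tested, and every adjusted p below is of that kind. The libraries are called control 1 to 3 and ketogenic 1 to 3. The extraction note names retina while the tissue label says hippocampus. Summed over 9 photoreceptor and bipolar cell markers, 1 of which was at 0 in all 6 libraries, the level was 2.90 to 5.02 CPM in the control and 3.36 to 4.53 CPM in the ketogenic libraries. Of the transducin genes of photoreceptors, Gnat1, Gnat2, Gngt1 and Gnb3 had 0 to 23 counts over the 6 libraries and Gngt2 had 98. The libraries were treated as hippocampus.

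All 45 genes could be tested. The diet came with changes in 7 of them, 5 higher and 2 lower, which is 15.6% of the genes, where 9.67% of all tested genes were called. By direction these are 11.1% higher against 5.05% of all tested genes and 4.44% lower against 4.62%. Gng4 of the gamma subunits, the RGS genes Rgs16, Rgs17 and Rgs4, and Gnai1 of the alpha subunits were higher, and Rgs11 and Rgs8 were lower. Separated diets, with every library of one beyond every library of the other, were seen for 18 of the 45 genes, or 40.0%, where 27.6% of all tested genes were so separated. The median log2 fold change was 0.01 for these genes and -0.01 for all tested genes, and the median size of a change, whatever its sign, was 0.20 and 0.16. With DESeq2 10 of the genes were called, and 1871 of all genes against 1593 in edgeR. In edgeR 15 of the 45 genes and 3803 of all 16478 tested had an unadjusted p under 0.05. Without ketogenic 2 these numbers were 13 and 2927. Of all tested genes 677 were called without control 2, 885 without ketogenic 3 and 538 without ketogenic 2. Without control 1, control 3 and ketogenic 1 these were 1124, 1877 and 1649. Among the 45 genes the count was 5 without control 1, 8 without control 3 and 6 without ketogenic 1. The count was 1 without control 2, 2 without ketogenic 3 and 0 without ketogenic 2. In a fit without control 1 and 2 it was 1, with the lone control library assumed to vary like the others.

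**Figure D1:**
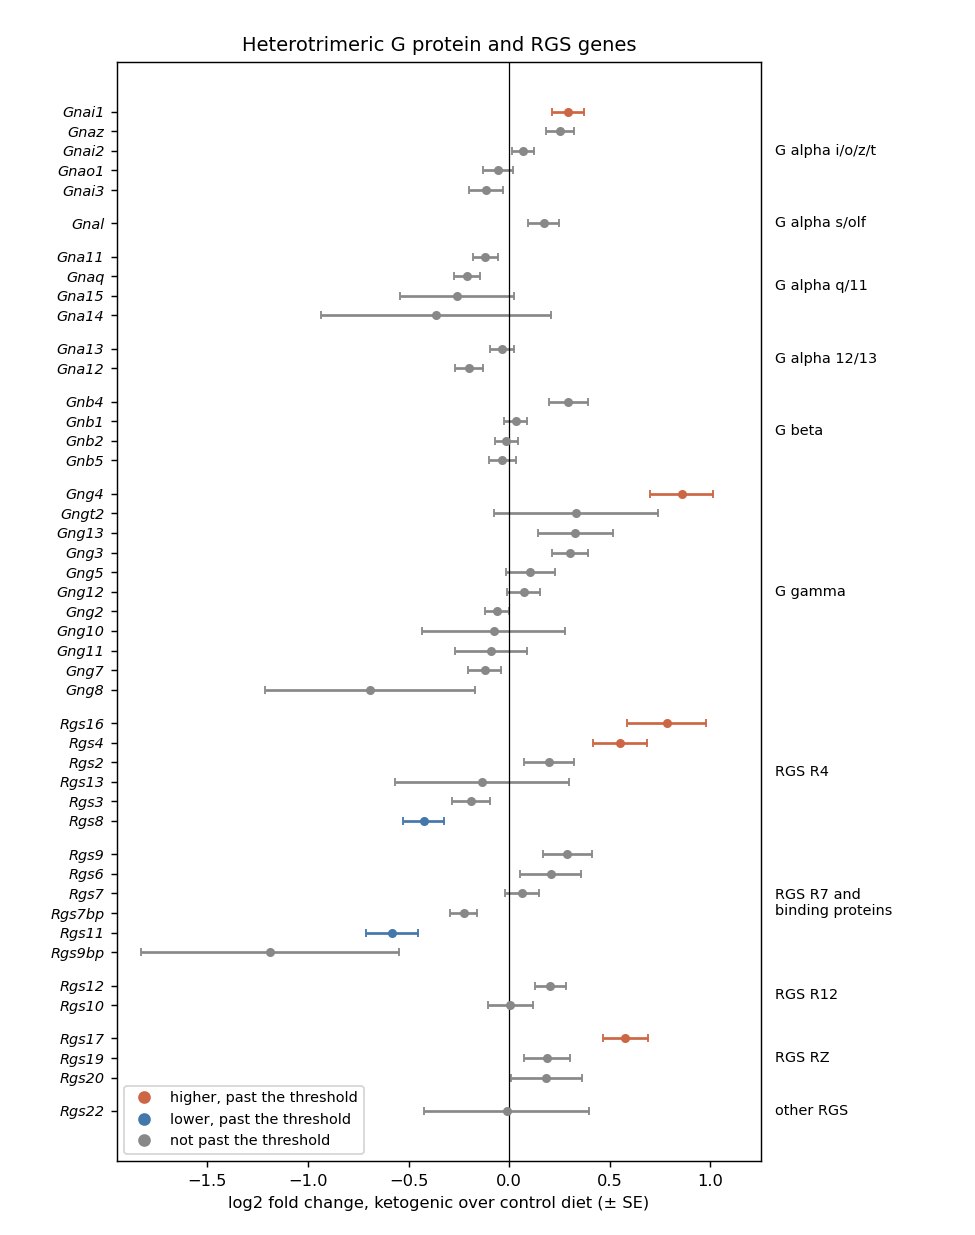
Log2 fold change of ketogenic over control diet (x axis) for each of the 45 genes, grouped by family. Points are edgeR estimates and bars their standard error (n = 3 per diet). The 5 genes in red were higher and the 2 in blue lower with an adjusted p under 0.05, and the bars are longest for genes of low abundance such as Rgs9bp and Gng8.

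Of the 7 genes that changed, 5 are shown first by the DNA at their starts, because Rgs16 and Rgs8 are neighbours on chromosome 1, 40025 bases apart and on the same strand, and went in opposite directions. The windows run from 250 bases before to 50 bases after the transcription start, as RefSeq gives it on GRCm38.p6, and the one nearest to the deposited gene start was used. Capitals mark the GC box GGGCGG, the core TGACG of the cAMP response element, the CCAAT box CCAAT and the TATA box TATAAA, each searched on both strands, so that a hit on the other strand appears as the reverse complement of these letters. The windows are chr1:153740103-153740402 (plus strand) for Rgs16, chr1:153652787-153653086 (plus) for Rgs8, chr1:169747593-169747892 (minus) for Rgs4, chr10:5922351-5922650 (minus) for Rgs17 and chr13:13783809-13784108 (plus) for Gng4.
Rgs16: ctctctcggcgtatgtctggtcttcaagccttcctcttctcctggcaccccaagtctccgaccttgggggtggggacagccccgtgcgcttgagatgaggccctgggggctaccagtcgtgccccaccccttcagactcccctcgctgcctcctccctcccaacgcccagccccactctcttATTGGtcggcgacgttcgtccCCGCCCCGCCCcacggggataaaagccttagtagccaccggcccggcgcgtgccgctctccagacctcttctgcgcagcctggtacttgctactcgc
Rgs8: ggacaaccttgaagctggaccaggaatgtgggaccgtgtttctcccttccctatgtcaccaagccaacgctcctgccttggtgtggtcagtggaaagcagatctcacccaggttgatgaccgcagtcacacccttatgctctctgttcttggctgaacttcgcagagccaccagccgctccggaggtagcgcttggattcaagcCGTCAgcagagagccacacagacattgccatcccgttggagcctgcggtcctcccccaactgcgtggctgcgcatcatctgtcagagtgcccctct
Rgs4: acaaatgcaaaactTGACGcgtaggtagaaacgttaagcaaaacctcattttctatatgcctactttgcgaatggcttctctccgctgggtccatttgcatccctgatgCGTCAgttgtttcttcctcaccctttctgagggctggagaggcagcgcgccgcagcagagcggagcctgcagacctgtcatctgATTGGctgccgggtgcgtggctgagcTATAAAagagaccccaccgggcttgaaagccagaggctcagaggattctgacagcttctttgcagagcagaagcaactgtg
Rgs17: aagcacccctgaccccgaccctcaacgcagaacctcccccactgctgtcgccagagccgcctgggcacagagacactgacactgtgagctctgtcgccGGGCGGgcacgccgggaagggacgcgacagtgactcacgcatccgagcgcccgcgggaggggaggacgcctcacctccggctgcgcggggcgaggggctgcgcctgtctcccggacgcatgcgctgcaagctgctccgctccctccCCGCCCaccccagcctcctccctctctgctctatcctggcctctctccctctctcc
Gng4: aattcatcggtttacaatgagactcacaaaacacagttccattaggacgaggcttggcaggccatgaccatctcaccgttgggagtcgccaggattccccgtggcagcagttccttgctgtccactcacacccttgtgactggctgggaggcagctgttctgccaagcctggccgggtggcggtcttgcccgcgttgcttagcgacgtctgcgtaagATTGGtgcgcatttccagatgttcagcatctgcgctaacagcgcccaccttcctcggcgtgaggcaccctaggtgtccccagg
The Rgs16 window holds 2 overlapping GC boxes and 1 CCAAT box, and the Rgs8 window holds neither but has 1 cAMP response element core. The Rgs4 window is the only one of these 5 with a TATA box, and it also has 1 CCAAT box and 2 such cores. The Rgs17 window has 2 GC boxes and the Gng4 window 1 CCAAT box. Of all 32851 RefSeq windows of this length, 35.7% hold a GC box, 20.8% the cAMP response element core, 37.4% a CCAAT box and 13.6% a TATA box. No motif of the 4 searched is in the windows of all 4 genes shown here that rose. The window of Gnai1, with a GC box and none of the other motifs, is not shown, and no window was matched for Rgs11. RefSeq gives other starts too for Rgs8 and Gng4, whose windows are not shown.

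Of the 12 alpha subunit genes 1 rose and none fell, or 8.33%, where 9.67% of all tested genes were called. Of the 12, 4 had an unadjusted p under 0.05 and 2 were called by DESeq2. Of all 16478 tested genes these were 3803 and 1871. The family of Gi, Go and Gz subunits inhibits adenylyl cyclase and releases the beta-gamma pairs that open potassium channels. Gnai1, which encodes an inhibitory alpha subunit (ENSMUSG00000057614, chromosome 5, 18265135 to 18360355, minus strand, GRCm38), had 193, 184 and 177 CPM in control 1, 2 and 3 and 199.7, 240.5 and 238 CPM in ketogenic 1, 2 and 3. Ketogenic 1 lies just above the highest control library and the other two ketogenic libraries well above it, so the diets do not overlap. The mean rose from 185 ± 8.16 to 226 ± 23.0 CPM (SD, n = 3), or 0.29 ± 0.08 on the log2 scale (adjusted p = 0.0447). This call was lost without any single library but ketogenic 1, with adjusted p of 0.0607 to 0.209 and log2 fold changes of 0.24 to 0.33, and also with the replicate number as a block and with limma-voom.

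Gnaz, whose product is the slowly hydrolysing Gz subunit, stood close to the threshold at 0.25 ± 0.07 (adjusted p = 0.0516), with 67.4 to 76.5 CPM in the control and 83.4 to 89.4 CPM in the ketogenic libraries. DESeq2, upper-quartile scaling and a filter at a mean of 1 CPM called it higher. Gnao1, the gene of the major alpha subunit of neurons, had 604, 664 and 731 CPM in the control and 663, 636 and 626 CPM in the ketogenic libraries. All 3 ketogenic values fall inside the control range. Gnai2 and Gnai3 stood at 0.07 ± 0.05 and -0.12 ± 0.08 (adjusted p = 0.519 and 0.465).

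The Gq family, which activates phospholipase C beta, had a negative log2 fold change in all 4 measured genes, and none of the 4 passed in edgeR or DESeq2, with 1 at an unadjusted p under 0.05. Gnaq, the most abundant, had 347, 310.3 and 327 CPM in the control and 279, 273 and 298 CPM in the ketogenic libraries. The diets do not overlap, but its log2 fold change of -0.21 ± 0.06 missed the threshold (adjusted p = 0.0681). Gna11 stood at -0.12 ± 0.06 (adjusted p = 0.301), and Gna14 and Gna15, at 0.587 to 2.63 CPM by diet mean, had standard errors of 0.57 and 0.28.

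Of the G12 family, which acts on the cytoskeleton through guanine nucleotide exchange factors, Gna12 had 104, 111 and 102 CPM in the control and 97.0, 85.7 and 92.7 CPM in the ketogenic libraries (-0.20 ± 0.07, adjusted p = 0.110). The diets do not overlap there either. Amz1 overlaps Gna12 on the other strand and rose by 1.20 on the log2 scale (adjusted p = 0.00147), with 1119 counts in all against 10194 for Gna12. Gna13 stood at -0.04 ± 0.06 (adjusted p = 0.797). Gnal, which encodes the stimulatory alpha subunit of olfactory and striatal neurons, had 113, 116 and 135 CPM in the control and 131, 139 and 141 CPM in the ketogenic libraries, where control 3 lies among the ketogenic values (0.17 ± 0.08, adjusted p = 0.222).

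None of the 4 beta subunit genes passed in edgeR or DESeq2. Of them 1 had an unadjusted p under 0.05, as had 3803 of all 16478 tested genes. Gnb1, the most abundant gene of the whole set at a mean of 117 FPKM, had 483, 489 and 518 CPM in the control and 516, 499.9 and 508 CPM in the ketogenic libraries. These values interleave (0.03 ± 0.06, adjusted p = 0.791). Gnb2 and Gnb5 stood at -0.02 ± 0.06 and -0.04 ± 0.07 (adjusted p = 0.913 and 0.816). Gnb5 encodes the unusual beta subunit that pairs with RGS proteins of the R7 family. Gnb4, a scarce member at 1.51 FPKM, was the 1 with separated diets, 16.5 to 18.1 against 21.1 to 21.6 CPM (0.30 ± 0.10, adjusted p = 0.0936).

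Among 11 gamma subunit genes 1 rose and none fell, or 9.09%, where 9.67% of all tested genes were called. Of the 11, 2 had an unadjusted p under 0.05 and 2 were called by DESeq2. Gng4, whose product anchors beta subunits to the membrane through a lipid tail as all gamma subunits do (ENSMUSG00000021303, chromosome 13, 13784059 to 13827896, plus strand), had 16.4, 23.1 and 24.4 CPM in the control and 32.1, 40.4 and 43.3 CPM in the ketogenic libraries. Every ketogenic library lies above every control library. The mean went from 21.3 ± 4.26 to 38.6 ± 5.81 CPM (SD, n = 3), or 0.86 ± 0.16 on the log2 scale, the largest rise among the 7 called genes (adjusted p = 0.00807). It was the 1 gene of the set with an adjusted p under 0.01. Its call was lost without ketogenic 2, at 0.82 (adjusted p = 0.0520), and without control 1 and 2, at 0.66 (adjusted p = 0.110).

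Gng3, the most abundant gamma gene by FPKM and one found mainly in neurons, had 118, 117 and 142 CPM in the control and 169, 151 and 145 CPM in the ketogenic libraries. Control 3 lies just below the lowest ketogenic library, and the log2 fold change of 0.30 ± 0.09 missed the threshold (adjusted p = 0.0640). It passed with DESeq2 and without control 3. Bscl2 overlaps Gng3 on the other strand with 5997 counts against 14547, and reads of the shared stretch cannot be told apart where strand was not used. Gng7 and Gng2, next in abundance, stood at -0.12 ± 0.08 and -0.06 ± 0.06 (adjusted p = 0.427 and 0.613). Gng12, Gng13, Gng5 and Gng11 lay between -0.09 and 0.33, and Gng10, Gng8 and Gngt2 were at most 1.30 CPM in each library and had standard errors of 0.36 to 0.52.

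Of 18 genes of RGS proteins and their anchors 3 rose and 2 fell, or 27.8%. Of 27 subunit genes 2 rose and none fell, or 7.41%. Of all tested genes 9.67% were called. DESeq2 called 6 of the 18 and 4 of the 27, and 1871 of all 16478 tested genes. In edgeR 8 of the 18 and 7 of the 27 had an unadjusted p under 0.05, as had 3803 of all 16478. The difference between RGS and subunit genes was not tested. In the R4 family, small RGS proteins that act on Gi, Go and Gq subunits, 2 of 6 genes rose and 1 fell. Of these 6, DESeq2 called 3, and 3 had an unadjusted p under 0.05 in edgeR. Rgs4, the most abundant RGS gene of the set at 43.6 FPKM and one long known in forebrain neurons (ENSMUSG00000038530, chromosome 1, 169741477 to 169747642, minus strand), had 92.1, 97.6 and 141 CPM in the control and 158, 166 and 160.4 CPM in the ketogenic libraries. The ketogenic libraries lie close together, while control 3 stands nearer to them than to control 1 and 2. The mean rose from 110.3 ± 26.9 to 162 ± 3.82 CPM (SD, n = 3), or 0.55 ± 0.14 on the log2 scale (adjusted p = 0.0296).

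With control 1 and 2 both left out, which leaves 1 control library, the log2 fold change of Rgs4 was 0.19 (adjusted p = 0.386), and without control 3 it was 0.77 (adjusted p = 0.000257). Leaving out any other single library lost the call, with adjusted p of 0.0545 to 0.128 and log2 fold changes of 0.44 to 0.56. Summed over 10 choroid plexus markers, control 1, 2 and 3 had 6953, 3619 and 752 CPM and the ketogenic libraries 33.5 to 77.5 CPM, so the same libraries that are low in Rgs4 are high in choroid plexus transcripts. This order is not particular to Rgs4. In Gng4, Rgs16 and Rgs8 too, control 1 was the lowest control library and control 3 the highest. In Gnai1 the order was reversed, and Rgs11 and Rgs17 had neither order. The part of that tissue in the values of Rgs4 and the other called genes was not tested.

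Rgs16, another R4 gene, which is induced by many stimuli (ENSMUSG00000026475, chromosome 1, 153740349 to 153745468, plus strand), had 5.03, 5.79 and 8.11 CPM in the control and 9.92, 10.02 and 12.7 CPM in the ketogenic libraries. The diets do not overlap, and control 3 is again the control library nearest to the ketogenic ones. The mean rose from 6.31 ± 1.60 to 10.9 ± 1.56 CPM (SD, n = 3), or 0.78 ± 0.20 on the log2 scale (adjusted p = 0.0320). Rgs16 no longer passed without control 1, control 2, ketogenic 2 or ketogenic 3, at 0.64 to 0.84 (adjusted p = 0.0891 to 0.130), and without control 1 and 2 together the value was 0.42 (adjusted p = 0.430).

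Rgs8, its neighbour and an R4 gene known best from Purkinje cells (ENSMUSG00000042671, chromosome 1, 153653025 to 153700323, plus strand), went the other way. It had 110.2, 113 and 137 CPM in the control and 101, 83.8 and 83.7 CPM in the ketogenic libraries. Ketogenic 1 lies a little below the lowest control library and the others well below. The mean fell from 120.2 ± 15.0 to 89.5 ± 9.93 CPM (SD, n = 3), or -0.42 ± 0.10 on the log2 scale (adjusted p = 0.0288). Without control 1 and 2 the fall was still called, at -0.62 (adjusted p = 0.0391), and it was not called without control 2, control 3, ketogenic 2 or ketogenic 3, at -0.47 to -0.32 (adjusted p = 0.0548 to 0.138). Control 3 was the highest control library for both neighbours, next to the ketogenic libraries in Rgs16 and farthest from them in Rgs8.

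Of the other R4 genes, Rgs2, which acts chiefly on Gq, had 31.9 to 36.5 CPM in the control and 32.2 to 45.6 CPM in the ketogenic libraries (0.20 ± 0.12, adjusted p = 0.392). Rgs3 stood at -0.19 ± 0.10 (adjusted p = 0.280) with separated diets. Rgs13, at 0.833 ± 0.110 and 0.764 ± 0.413 CPM, had too few counts to place.

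**Figure D2:**
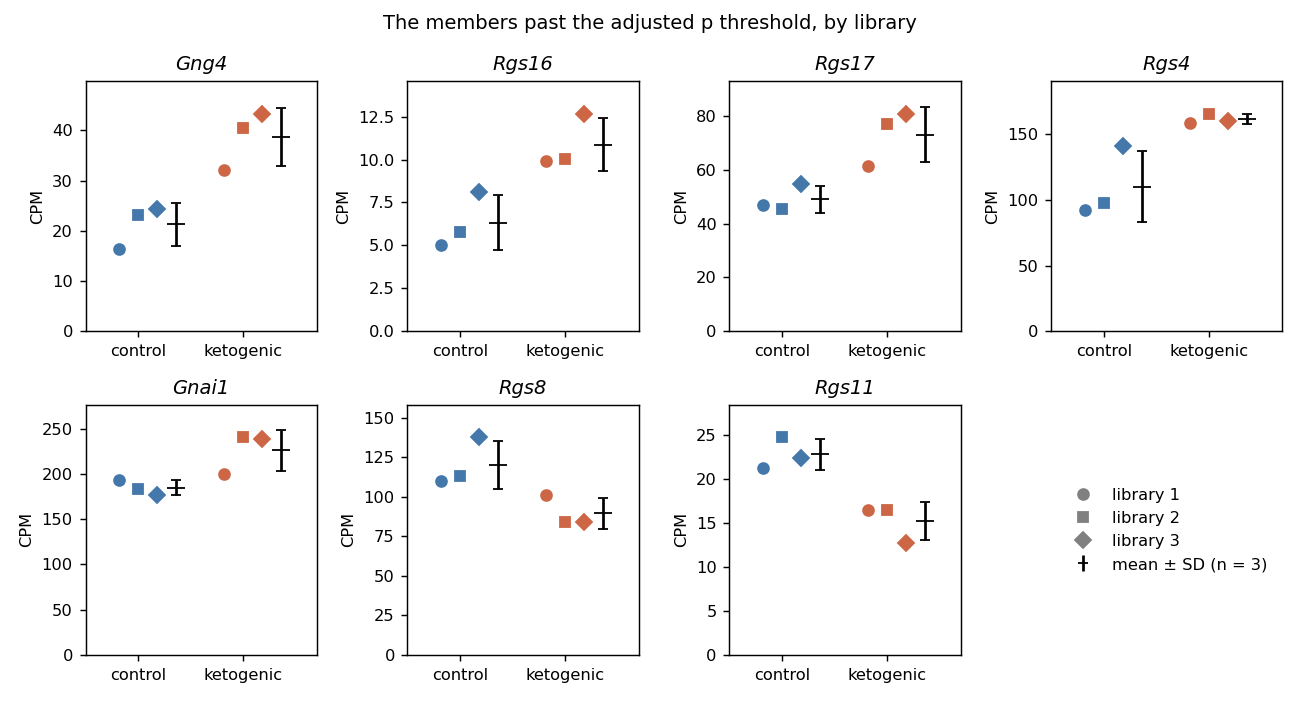
CPM (y axis, from 0) of the 7 genes past the threshold in each library, with symbols for the library number and the mean ± SD (n = 3) beside each diet. The diets do not overlap in any of the 7, and control 3 lies highest of the controls in Rgs4, Rgs16, Rgs17, Gng4 and Rgs8.

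Members of the R7 family pair with the Gnb5 product and are held at the membrane by the anchor encoded by Rgs7bp. With the genes of the binding proteins, Rgs7bp and Rgs9bp, they make 6 genes. Of these DESeq2 called 2, and 3 had an unadjusted p under 0.05 in edgeR. By the edgeR threshold 4.62% of all tested genes fell and 5.05% rose. Of the 6 genes 1 fell and none rose. That gene was Rgs11, known best from retinal bipolar cells (ENSMUSG00000024186, chromosome 17, 26202951 to 26211324, plus strand), with 21.2, 24.7 and 22.4 CPM in the control and 16.4, 16.5 and 12.7 CPM in the ketogenic libraries. All ketogenic libraries lie below all control libraries. The mean fell from 22.8 ± 1.79 to 15.2 ± 2.18 CPM (SD, n = 3), or -0.58 ± 0.13 on the log2 scale (adjusted p = 0.0195). Rgs11 no longer passed without control 2, ketogenic 2 or ketogenic 3, at -0.64 to -0.47 (adjusted p = 0.0562 to 0.0891), and without control 1 and 2, at -0.56 (adjusted p = 0.164). Arhgdig overlaps Rgs11 on the other strand with 3820 counts against 1955, and stood at 0.07 (adjusted p = 0.764). What this overlap adds to the Rgs11 counts was not tested.

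Rgs7bp, the most abundant of these 6 genes at 46.9 FPKM, had 334, 361 and 387 CPM in the control and 321, 306 and 297 CPM in the ketogenic libraries. The diets do not overlap, and the log2 fold change of -0.23 ± 0.07 fell short of the threshold (adjusted p = 0.0638). DESeq2 called it lower. Rgs7, which had the highest FPKM of the R7 genes themselves, stood at 0.07 ± 0.08 (adjusted p = 0.714). Rgs6 stood at 0.21 ± 0.15 and Rgs9 at 0.29 ± 0.12 (adjusted p = 0.473 and 0.187). Rgs9bp had the most negative estimate of the set, -1.19 ± 0.64 (adjusted p = 0.315), on 64 counts in all.

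Of the RZ family, which acts on Gz and Gi subunits, 1 of 3 genes rose, where 5.05% of all tested genes did. DESeq2 also called 1 of the 3, and 1 had an unadjusted p under 0.05 in edgeR. Rgs17 (ENSMUSG00000019775, chromosome 10, 5825663 to 5922400, minus strand) had 47.0, 45.4 and 54.6 CPM in the control and 61.3, 77.2 and 80.9 CPM in the ketogenic libraries. Every ketogenic library is above every control library. The mean rose from 49.0 ± 4.90 to 73.1 ± 10.4 CPM (SD, n = 3), or 0.58 ± 0.11 on the log2 scale (adjusted p = 0.0108). Rgs17 no longer passed with control 2 left out, at 0.52 (adjusted p = 0.0620), with ketogenic 2 left out, at 0.54 (adjusted p = 0.0659), or with control 1 and 2 left out, at 0.42 (adjusted p = 0.241).

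Rgs19, the most abundant RZ gene by FPKM, had 19.2, 18.1 and 18.6 CPM in the control and 20.6, 19.0 and 24.1 CPM in the ketogenic libraries (0.19 ± 0.11, adjusted p = 0.380). Rgs20 stood at 0.18 ± 0.18 (adjusted p = 0.599). It overlaps Atp6v1h on the other strand, a gene with 13979 counts against its 1307. Its value may hold reads of that gene, which was not tested. In the R12 family Rgs10, a gene abundant in microglia, had 14.3, 14.8 and 16.5 CPM in the control and 15.4, 15.7 and 14.7 CPM in the ketogenic libraries, which interleave (0.01 ± 0.11, adjusted p = 0.981). Rgs12 stood at 0.21 ± 0.08 (adjusted p = 0.138) with separated diets. Rgs22 had 0.473, 1.30 and 1.03 CPM in the control and 0.755, 0.968 and 1.06 CPM in the ketogenic libraries (adjusted p = 0.990).

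Levels between genes were compared as FPKM, as a share of the summed FPKM of each kind of gene in each library, without a test. Among the 12 alpha subunit genes no single one dominated. Gnai1 made up 15.4% to 16.8% of the sum in the control and 17.6% to 20.9% in the ketogenic libraries, and Gnao1 14.9% to 18.0% and 15.2% to 16.6%. Gnas, the main stimulatory subunit gene, is not part of this sum. Gnb1 made up 53.8% to 54.3% of the 4 beta genes in the control and 54.7% to 55.1% in the ketogenic libraries. The gamma sum was led by Gng3, Gng7 and Gng2, and Gng4, which rose, remained a minor part of it, at 2.22% to 3.03% and 3.66% to 5.48%. The ketogenic share of Gng7 was 20.2% to 22.7%, below its 23.6% to 26.8% in the control libraries, and that of Gng3 was 35.1% to 37.8%, above its 30.1% to 34.1%.

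Of the 16 RGS genes Rgs4 alone made up 28.4% to 36.4% of the sum in the control and 38.2% to 39.8% in the ketogenic libraries. Rgs8 made up 10.9% to 11.4% in the control and 6.40% to 8.10% in the ketogenic libraries. Its mean share was above those of Rgs7, Rgs2 and Rgs19 in the control libraries and below all 3 in the ketogenic ones. The summed FPKM of the RGS genes was 104.1 to 125 in the control and 128 to 135 in the ketogenic libraries. That of the alpha genes was 354 to 365 and 359 to 371, and that of the beta genes 209 to 222 and 212 to 218. That of the 11 gamma genes was 221 to 243 and 236 to 261. The alpha, beta and gamma sums overlap between diets while the RGS sum does not. That separation was carried by Rgs4, since the other 15 RGS genes summed to 74.3 to 79.3 in the control and 77.5 to 83.4 FPKM in the ketogenic libraries, which overlap. With the genes of the binding proteins, Rgs7bp and Rgs9bp, added to the 16, the sums were 151 to 179 and 173 to 177 FPKM, which overlap as well. These last 2 sums were chosen after the values were seen.

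**Figure D3:**
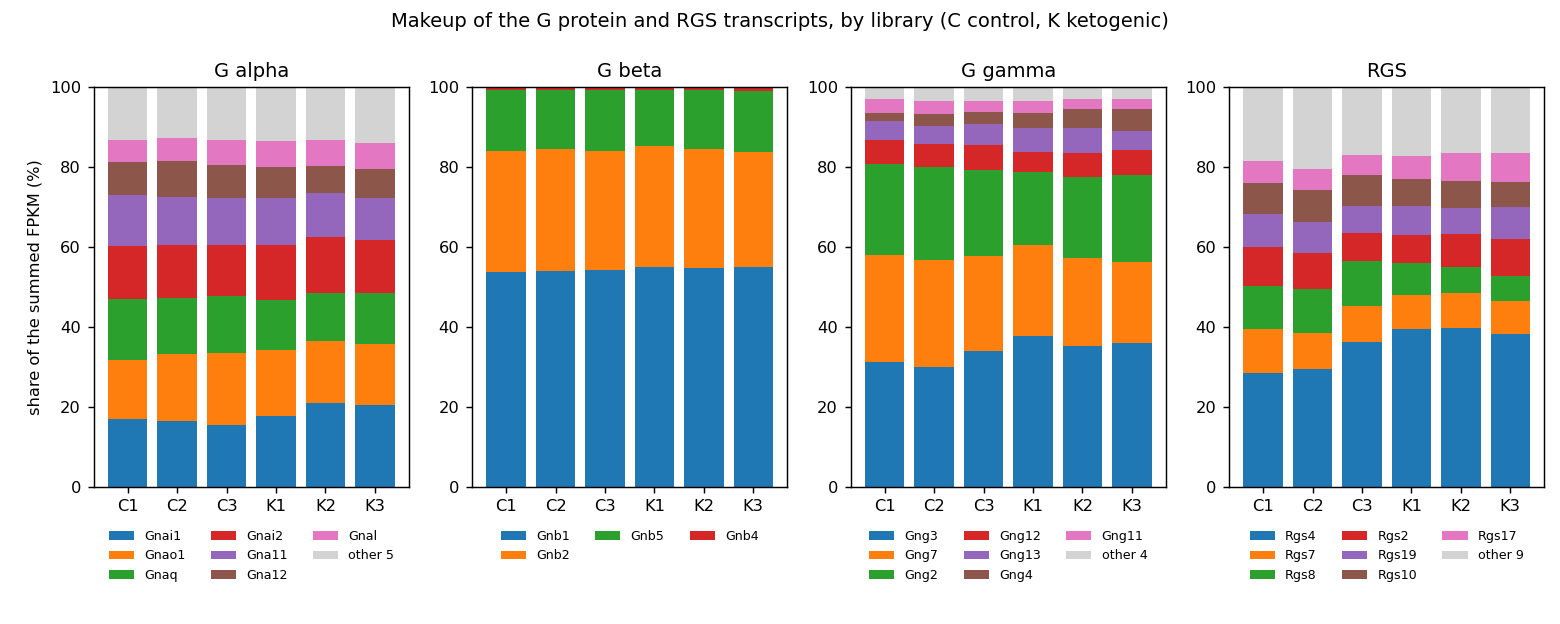
Share of the summed FPKM (y axis, percent) of each gene within the alpha, beta, gamma and RGS genes in each of the 6 libraries. The 7 most abundant genes of each kind are drawn and the others are grouped in grey. The beta panel is nearly constant, while in the RGS panel Rgs4 takes 28.4% to 36.4% in control and 38.2% to 39.8% in ketogenic libraries.

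The spread between libraries of 1 diet was small for most of these genes. Over the 37 genes with a mean of at least 5 CPM the median coefficient of variation was 6.84% in the control and 4.51% in the ketogenic libraries. It was highest in the control libraries for Rgs16 at 25.4% and Rgs4 at 24.4%, both of which rose. In the ketogenic libraries Rgs4 varied by 2.37%. Standard errors of the log2 fold change were 0.05 to 0.20 for these 37 genes and 0.28 to 0.64 for the 8 scarcer ones.

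**Figure D4:**
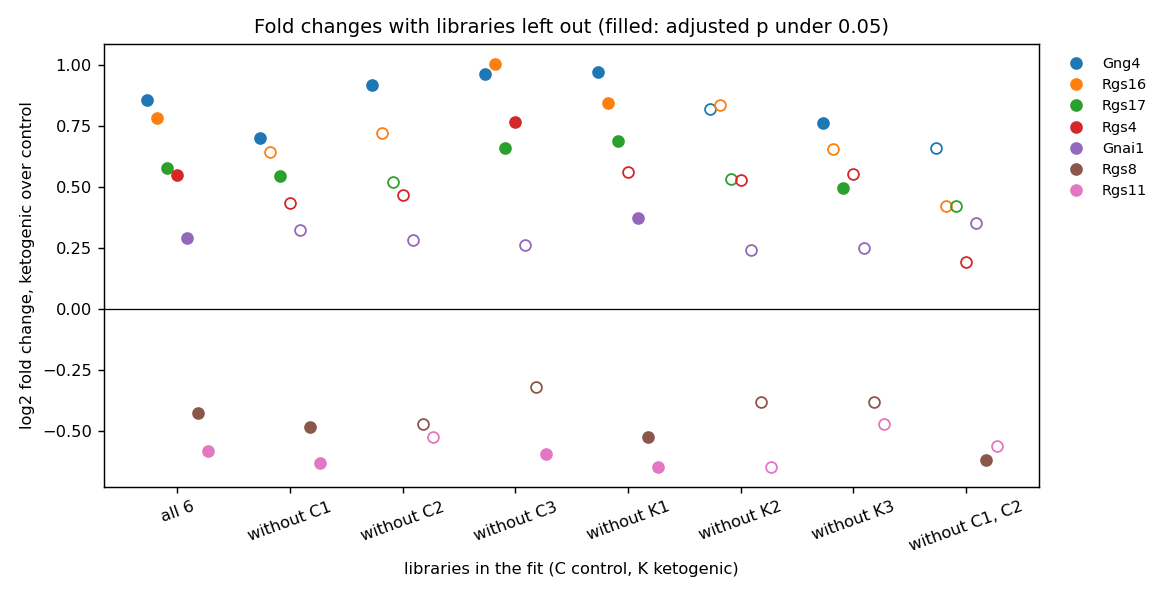
Log2 fold change of ketogenic over control (y axis) of the 7 genes with all 6 libraries, with each library left out in turn and with control 1 and 2 left out (x axis). Filled points have an adjusted p under 0.05. Every point stays on its side of 0, no point is filled without ketogenic 2, and Rgs4 drops to 0.19 without control 1 and 2.

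Genes that act with G proteins were read from the same fit, as 59 listed symbols of which 53 could be tested. Of these 6 rose and 6 fell, or 22.6%, where 9.67% of all tested genes were called, with a median log2 fold change of -0.04. The lists were written with earlier results of these data known, so their share cannot show that such genes changed more often. Among the 4 GIRK potassium channels, which beta-gamma pairs open, the subunits split. Kcnj6 had 55.3, 54.0 and 51.7 CPM in the control and 34.4, 33.2 and 34.3 CPM in the ketogenic libraries, tight groups far apart (-0.66 ± 0.07, adjusted p = 0.00128). Kcnj9, the most abundant by FPKM, rose by 0.32 ± 0.07 (adjusted p = 0.0186), from 96.7 ± 6.13 to 121 ± 5.52 CPM (SD, n = 3), and was not called when control 2 or ketogenic 2 was left out (adjusted p = 0.0892 and 0.113).

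Of the kinases and arrestins that silence receptors, Grk3 rose from 114 ± 6.07 to 164 ± 14.1 CPM (0.53 ± 0.08, adjusted p = 0.00288), and Grk2, the most abundant, stood at 0.02 ± 0.05 (adjusted p = 0.851). Arr3, the cone arrestin, was called lower on 1.63 ± 0.177 and 0.604 ± 0.315 CPM (SD, n = 3, adjusted p = 0.0452), a call kept only without ketogenic 2 when single libraries were left out. Kctd8, which encodes a partner of GABA-B receptors that binds beta-gamma pairs, rose from 3.22 ± 0.246 to 7.12 ± 0.735 CPM (1.14 ± 0.18, adjusted p = 0.00356), and was the 1 gene of its list of 6 to pass, while the most abundant of them, Kctd17, stood at -0.11 ± 0.08 (adjusted p = 0.444). The receptor sorting genes Gprasp1 and Gprasp2 rose by 0.42 ± 0.08 and 0.66 ± 0.11 (adjusted p = 0.00981 and 0.00545), and Rap1gap2, which ends signals of Rap GTPases, by 0.41 ± 0.07 (adjusted p = 0.00798). The calls of Gprasp1 and Rap1gap2 were lost without ketogenic 2, and that of Gprasp1 also without control 2.

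Of the 6 that fell, 4 were small GTPases or exchange factors. Rasd2 and Rasd1, Ras-like proteins that can act on G proteins without a receptor, fell by 0.76 and 0.94 on the log2 scale (adjusted p = 0.00290 and 0.00746), the latter not called without ketogenic 2 (adjusted p = 0.0513). Rasd2 is also a striatal marker. Kalrn, an exchange factor of dendritic spines, had 880.2, 974 and 832 CPM in the control and 643, 603 and 537 CPM in the ketogenic libraries (-0.59 ± 0.08, adjusted p = 0.00260). Without control 1 and 2, 8 of the 12 pathway genes were no longer called (adjusted p = 0.0586 to 0.384), with Kalrn, Kctd8 and Gprasp2 among them. Arhgef25, the most abundant exchange factor of the list and a target of Gq, fell by 0.51 (adjusted p = 0.0456), a call kept only without ketogenic 1 when single libraries were left out. None of the 4 phospholipase C beta genes or of the 7 other genes with RGS domains passed in edgeR or DESeq2, and 1 of each list had an unadjusted p under 0.05 in edgeR. Plcb1 and Snx25, the most abundant, stood at -0.10 ± 0.06 and 0.01 ± 0.07 (adjusted p = 0.340 and 0.949).

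Markers of several cell types differed between the same libraries. The marker lists were written with earlier results of these data known, so their shares cannot show that such genes changed more often. Of all tested genes 5.05% were called higher and 4.62% lower. Dentate granule cell markers summed to 1167 to 1269 CPM in the control and 749 to 949.9 CPM in the ketogenic libraries, with 6 of 10 called lower, and CA2 and CA3 markers to 231 to 253 and 154 to 171 CPM, with 5 of 9 lower. CA1 markers summed to 849 to 1019 and 981 to 1056 CPM, which overlap, with 3 higher and 2 lower of 8. Interneuron markers summed to 757 to 779.6 and 1044 to 1387 CPM, with 10 of 12 higher, and subicular and cortical markers to 274 to 325 and 418 to 453 CPM, with 5 of 9 higher. All 10 choroid plexus markers, 2 of 6 ependymal markers and 8 of 10 myelin markers were lower, and 7 of 11 mural and fibroblast markers were higher. Striatal markers, which matter for Gnal, Gng7 and Rgs9, summed to 264 to 344 and 204 to 222 CPM, with 3 higher and 3 lower of 10. Thalamic and habenular markers summed to 206 to 239 and 304 to 329 CPM, with 5 higher and 1 lower of 12. Mossy cell markers summed to 14.5 to 18.8 and 58.3 to 73.1 CPM, with 3 of 5 higher. Most of that sum in the ketogenic libraries was Calb2, which is also on the thalamic list, at 6.62 to 8.71 and 44.3 to 58.1 CPM. The other 4 markers summed to 7.86 to 10.1 and 14.1 to 15.1 CPM, and Nmb among them stood at -0.47 ± 0.30 (adjusted p = 0.410). Genes induced by neuronal activity summed to 669 to 751 and 555 to 664 CPM, with 2 of 10 lower. The sums of astrocyte, microglia, endothelial and oligodendrocyte precursor markers overlapped between diets. The part of these differences in the G protein and RGS values was not tested, and in whole tissue fewer cells of a type and less RNA per cell cannot be told apart.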

How the data were processed

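Messenger RNA was sequenced from 6 hippocampus samples with Illumina TruSeq libraries, per the labels' protocols. For each library the authors deposited whole read counts by Ensembl gene and, beside them, FPKM values (counts scaled to gene length and library size). The submitters' processing notes name CASAVA, DESeq2 1.10.1 and featureCounts 1.5.0-p3, and the build mm9. Which aligner, FPKM tool or strand option was used was not given in the sources used here. Of 53620 gene identifiers shared with GENCODE M21 on GRCm38, 97.1% had the same start and end, so coordinates were read as GRCm38.

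Counts were fitted in R 4.3.3 with edgeR 4.0.16 (filterByExpr, TMM, quasi-likelihood F-test, no covariates) on all genes, with Benjamini-Hochberg adjustment over 16478 of them. The median standard error was 0.13 on the log2 fold change, and the common biological coefficient of variation was 11.6%. The steps were tested on simulated data. Libraries of 1 diet differed by more than counting noise (chi-square per degree of freedom of 5.81 to 17.2). The labels give 6 mice for the 6 libraries. Alternatives used limma 3.58.1 and DESeq2 1.42.0. Named genes are those past the threshold, the most abundant of each family and up to 3 called genes per pathway list. Other members named stood near the threshold, had separated diets or were chosen after their values were seen. Members, lists and tests were chosen with earlier results of these data known. Protein sequences were not used here.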

Additional observations from a re-analysis of the deposited data

How the results depend on the processing

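The 7 called genes kept their direction in all 112 values from the 16 refits tried for each, and passed the threshold in 69 of them. The count of 7 was 3 with limma on log2(FPKM + 1) values and 0 on log2(FPKM + 0.1) values, where 16 genes had an unadjusted p under 0.05. It was 1 at an adjusted p under 0.01, 12 under 0.10 and 1 without control 1 and 2. Leaving out 1 library each gave 0 to 8. It was 7 with RLE scaling, 8 with upper-quartile scaling, 10 with DESeq2 and with no filter. Of all tested genes 1593 were called, 2462 with no filter, 936 and 454 with limma on log2(FPKM + 1) and log2(FPKM + 0.1), 587 at an adjusted p under 0.01, 289 without control 1 and 2, and 538 to 1877 with 1 library left out each. Of the pathway genes 12 were called, 4 on log2(FPKM + 0.1), 4 without control 1 and 2, and 7 to 13 with 1 library left out each. The cause of these moves was not tested, except that leaving out libraries leaves fewer samples and a filter changes how many genes are tested.

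With the replicate number as a block 6 of the 45 genes were called, all among the 7, with Gnai1 lost, and 11 pathway genes and 1504 genes in all. Deviations from the diet means correlated between same-numbered libraries by -0.024, 0.061 and 0.029. Control 1 correlated best with ketogenic 3 and control 2 with ketogenic 1, so the numbers were not taken as pairs. Depth limits the 8 genes under 5 CPM most.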

Other observations

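Of the 45 genes 35 had a RefSeq promoter window. A GC box was present in 20 of them, or 57.1%, where 35.7% of all windows hold one, and a CCAAT box in 10, or 28.6%, against 37.4%. The cAMP response element core was in 7 and a TATA box in 4, or 11.4% against 13.6%. These shares are descriptions without a test. Each of the 35 genes gave 1 window, while the background counts every window, with more than 1 for some genes and at any level. The 2 shares are therefore not alike in makeup. For Rgs6 the window used starts transcription 29207 bases from the deposited gene start. By position, 7 of the 45 genes lie on chromosome 1, all of them RGS genes, and 3 of the 7 called genes are among them. Rgs8 and Rgs16 are the closest pair there, and Rgs2 and Rgs13 lie 134492 bases apart.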
